A study of Mus musculus with 24 samples.

Results

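Of the 25229 genes in the count table, 8 were followed across treatments because they build or restrain the lytic forms of programmed cell death: Ripk1, Ripk3, Mlkl and Zbp1 of necroptosis, Casp1, Casp4 and Gsdmd of pyroptosis, and Casp8, which belongs to both. They were taken from the table by gene symbol. All 8 were in the table, and 6 had enough reads to be tested, Ripk3 and Casp1 being the exceptions. RNA came from cultured ID8 P53 KO cells, a mouse ovarian cancer line in which the gene for p53 is disrupted, so that this deletion was shared by every group including the controls. There were 4 groups of 6 replicates, each treated for 6 days: DMSO, the vehicle; AU15330 at 2.5 μM, a PROTAC that directs the chromatin remodeling ATPases SMARCA4 and SMARCA2 to degradation; cisplatin at 750 nM, a platinum drug that damages DNA; and cisplatin with AU15330, called the combination here. These doses are those of the sample labels, and the methods of the study give another cisplatin concentration for these cells. No wild-type library was included, and AU15330 acts on protein, so the mRNA tests neither the genotype nor the degradation.

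In necroptosis, RIPK1 and RIPK3 join through a shared interaction motif, the RHIM, and RIPK3 then phosphorylates MLKL, which permeabilizes the plasma membrane. ZBP1, a sensor of left-handed nucleic acids encoded by an interferon-inducible gene, can bring RIPK3 into play without death receptors, and caspase-8 cleaves RIPK1 and RIPK3 and so restrains this route. In pyroptosis, caspase-1 is activated in inflammasomes and caspase-4 (caspase-11 in the mouse protein nomenclature) by intracellular lipopolysaccharide, and both cleave gasdermin D, whose released fragment forms membrane pores. These are steps between proteins, and mRNA levels do not report phosphorylation, cleavage or death.

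The promoters of members that rose with cisplatin are shown here because Zbp1, the member that rose most, is interferon-inducible, and the others could be searched for the letters of interferon-responsive elements. The sequences are those of RefSeq on GRCm38.p6, from 140 bases before the annotated start to 10 bases after it, and capitals mark matches to either of the motifs searched.
Ripk1, the downstream start (chr13:34002734-34002883, plus strand): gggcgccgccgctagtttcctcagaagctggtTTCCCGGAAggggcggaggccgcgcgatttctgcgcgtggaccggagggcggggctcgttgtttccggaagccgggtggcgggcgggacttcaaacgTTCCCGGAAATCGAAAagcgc
Mlkl (chr8:111338196-111338345, minus strand): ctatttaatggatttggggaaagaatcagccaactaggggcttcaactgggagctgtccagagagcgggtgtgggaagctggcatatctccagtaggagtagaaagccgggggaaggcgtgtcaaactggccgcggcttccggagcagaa
Casp8 (chr1:58802362-58802511, plus strand): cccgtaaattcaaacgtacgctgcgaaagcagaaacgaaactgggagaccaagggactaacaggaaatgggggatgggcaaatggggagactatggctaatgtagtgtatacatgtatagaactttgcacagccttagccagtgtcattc
Casp4, the upstream start (chr9:5308709-5308858, plus strand): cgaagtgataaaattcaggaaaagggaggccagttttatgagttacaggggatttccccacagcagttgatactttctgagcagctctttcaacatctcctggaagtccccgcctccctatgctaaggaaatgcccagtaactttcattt

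The motifs were an ISRE-like one, GAAA followed by any 2 bases and again GAAA, and a GAS-like one, TTCNNNGAA, searched on both strands from 250 bases before to 50 bases after each start. Windows were given for 6 of the 8 members, which have 8 starts in all, and Zbp1 and Gsdmd had no entry. The downstream start of Ripk1 had the ISRE-like letters from base −5 to base 5 and the GAS-like letters from −108 to −100 and from −11 to −3, the last of which overlaps the ISRE-like match. The other 7 windows, among them those of Mlkl, Casp8 and Casp4, held neither. Of all 32851 windows, 3.44% held the ISRE-like and 8.30% the GAS-like letters. A match of letters is a description of the sequence and not evidence of a bound factor.

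Library totals ran from 17592588 to 25260009 counted reads. Levels are given in CPM, the usual library-scaled count, with TMM scaling over the tested genes, and a count of 3, taken as the floor in a library, came to 0.120 to 0.186 CPM. Differences are log2 fold changes from edgeR's quasi-likelihood test, with p-values adjusted by the Benjamini-Hochberg method over the 12941 genes tested and called under 0.05. The labels do not say that replicates were separate cultures, so the p-values measure the spread between these samples. The line's own markers were present with DMSO and cisplatin, and some were nearly absent in the groups with AU15330. The 7 epithelial and mesothelial markers (Krt7, Krt8, Krt18, Krt19, Wt1, Msln and Upk3b) summed to 3512 to 5308 CPM with DMSO and 4174 to 4851 CPM with cisplatin, against 1018 to 1150 CPM with AU15330 and 1222 to 1403 CPM with the combination. Between the DMSO and AU15330 groups, mean levels were 1783 and 7.0 CPM for Krt19 and 45.3 and 0.49 CPM for Upk3b, while Wt1 (845 and 614 CPM) and Krt8 (337 and 243 CPM) lay closer together. Krt7 had 9 to 45 counts in the DMSO libraries, 0 to 2 with AU15330 and 0 to 5 with the combination. Of 10 immune markers only Cd68 and Cd14 had enough reads to be tested, and Ptprc, Adgre1, Csf1r, Itgam, Lyz2, Fcgr1, Cd3e and Nkg7 had at most 5 counts in any library. The whole list summed to 12.7 to 30.7 CPM with DMSO, 17.6 to 53.5 CPM with AU15330, 12.3 to 18.6 CPM with cisplatin and 25.2 to 43.1 CPM with the combination, which was mostly Cd68 (11.8, 34.8, 9.25 and 33.7 CPM on average in the same order), while Cd14 was at 8.59, 0.548, 5.10 and 0.817 CPM. Of 3 endothelial markers only Pecam1 was tested, and the list summed to 8.24 to 12.5 CPM with cisplatin and at most 4.28 CPM in any other library, with Cdh5 and Kdr at no more than 3 counts. The part of these shifts in the results on AU15330 and cisplatin was not tested.

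Zbp1 passed the filter on low counts only through its cisplatin libraries, so it is described by itself and left out of the counts that follow. With cisplatin alone, 4 of the other 5 tested genes rose (Ripk1, Mlkl, Casp8 and Casp4) and none fell, while Gsdmd showed no called change. Across all tested genes 26.0% rose and 25.7% fell in this comparison, and with scaling to total counts in place of TMM the share of higher genes among those called went from 50.2% to 61.1%. The 4 increases were of 1.23-fold to 1.60-fold. With AU15330 alone, 3 of the 5 rose and 2 fell, beside 36.2% and 37.2% of all tested genes, and the share of higher genes among those called went from 49.3% to 58.6% with total counts. Relative to cisplatin, the combination raised 3 and lowered 1, beside 35.4% and 32.7% of all tested genes. The median log2 fold change of the 5 genes was 0.31 for cisplatin, 0.37 for AU15330 and 0.21 for the combination against cisplatin, beside −0.004, −0.003 and 0.04 for all tested genes. The comparisons with DMSO share the DMSO libraries, and those with cisplatin the cisplatin libraries. Because RNA was taken from whole cultures, a change in the share of cells that express a gene and a change in its RNA per cell cannot be told apart. The plot of levels by library shows all 8 genes.

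**Figure D1:**
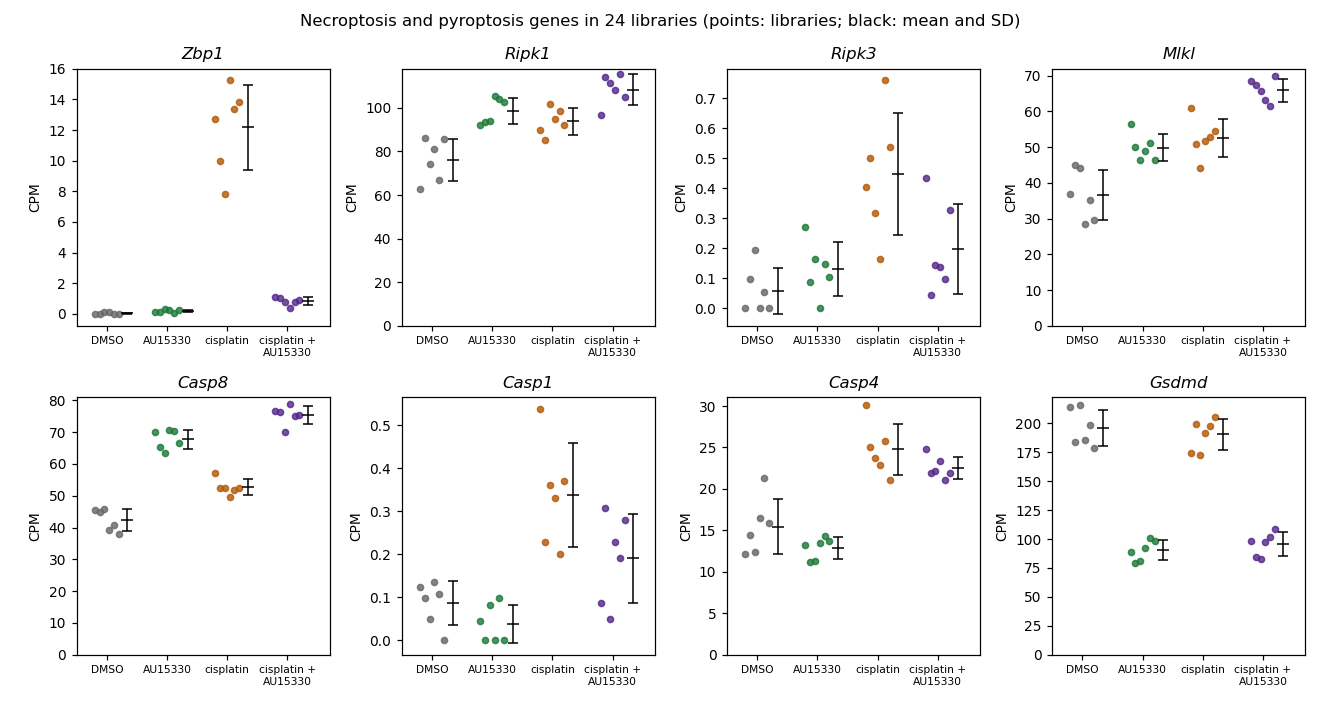
Levels of the 8 genes in CPM (vertical axes, a separate linear scale for each gene) in the 24 libraries, grouped by treatment on the horizontal axis; points are libraries, and the black marks give the mean and SD of 6 replicates. Zbp1 was high with cisplatin alone, Gsdmd was low in both groups with AU15330, and Casp8 and Mlkl were highest with the combination.

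Zbp1 (chr2:173206612-173218923, minus strand, GRCm38) was close to undetected in DMSO-treated cells. Its counts there were 0, 0, 2, 2, 0 and 0 in replicates 1 to 6, all under the floor. With cisplatin they were 284, 220, 173, 369, 335 and 336, which is 7.82 CPM in the lowest library, 13.1 at the median and 15.3 in the highest. Every cisplatin-treated library was far above every DMSO-treated one. The fitted log2 fold change was 8.28 (standard error, SE, 0.386, adjusted p = 2.22e-15), and as it depends on the prior count at such low DMSO levels, the ratio of pooled counts is given as well. It was 367, with a 95% exact interval of 143 to 1350 that covers counting error only.

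With AU15330 alone Zbp1 had 3, 3, 7, 5, 1 and 5 counts, which overlapped those with DMSO, and the pooled ratio was 5.53 (95% exact interval 1.90 to 21.9). The fitted log2 fold change was 2.28 (SE 0.688, adjusted p = 0.00446), but the gene would not have been tested on the libraries of these groups alone. The combination gave 26, 24, 16, 8, 16 and 20 counts, or 0.364 CPM in the lowest library, 0.848 at the median and 1.13 in the highest. All 6 of these libraries lay above those with DMSO or AU15330 and below those with cisplatin. Relative to cisplatin alone, the combination lowered Zbp1 by a log2 fold change of −3.85 (SE 0.243, adjusted p = 2.02e-13), or a pooled ratio of 14.6 between cisplatin and the combination (95% exact interval 12.1 to 17.9). By pooled counts Zbp1 ran in the order DMSO, AU15330, combination, cisplatin, and of the neighbors in that order DMSO and AU15330 overlapped.

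Ripk1 (chr13:34002363-34037147, plus strand), which encodes the kinase and scaffold at the receptor complexes, was expressed in every group. Its level in DMSO-treated cells was 62.8 CPM in the lowest library, 77.8 at the median and 86.1 in the highest. With cisplatin it was 85.1, 93.7 and 102 CPM, with AU15330 91.9, 98.3 and 105 CPM, and with the combination 96.6, 110 and 115 CPM. The cisplatin-treated libraries overlapped those with DMSO, 5 of 6 lying above the highest of them, whereas all libraries with AU15330 were above all with DMSO. The log2 fold change was 0.30 for cisplatin (SE 0.0735, adjusted p = 0.00135) and 0.37 for AU15330 (SE 0.0735, adjusted p = 6.81e-05). The combination was higher than cisplatin alone by 0.21 (SE 0.0732, adjusted p = 0.0138), a call that was lost without replicate 2 (0.17, adjusted p = 0.068). The neighbors cisplatin and AU15330 (adjusted p = 0.383) and AU15330 and the combination (adjusted p = 0.137) did not differ at the threshold. Of the 8344 exonic bases of Ripk1, 241 overlap exons of Serpinb6a on the opposite strand and 511 the pseudogene Gm17084 on the same strand, and the use of strand in the counting was not stated, so part of its reads could be assigned otherwise.

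Ripk3 (chr14:55784995-55788865, minus strand), the kinase that acts on MLKL, was near the limit of detection throughout. Its counts were 0, 2, 4, 0, 1 and 0 with DMSO, 6, 2, 4, 0, 3 and 2 with AU15330, 9, 11, 7, 4, 19 and 13 with cisplatin, and 10, 1, 3, 3, 2 and 7 with the combination. Cisplatin gave the highest counts, with 5 of 6 libraries above every DMSO-treated one in CPM, but the gene did not pass the filter on low counts. The pooled ratio was 7.70 for cisplatin against DMSO (95% exact interval 3.53 to 19.9) and 2.27 for cisplatin against the combination (1.42 to 3.74). In a fit without the filter, which tests 20428 genes, Ripk3 was higher with cisplatin than with DMSO (log2 fold change 2.80, adjusted p = 0.000911), and its difference between the combination and cisplatin missed the threshold (adjusted p = 0.0638).

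Mlkl (chr8:111311797-111338177, minus strand), the executioner of necroptosis, was higher with each drug and highest with both. With DMSO its level was 28.6 CPM in the lowest library, 36.0 at the median and 45.1 in the highest. The values were 46.4, 49.4 and 56.3 CPM with AU15330, 44.2, 52.3 and 60.8 CPM with cisplatin, and 61.5, 66.5 and 69.9 CPM with the combination. All libraries of the combination were above all others, and those of the single drugs overlapped each other. The log2 fold change was 0.52 for cisplatin (SE 0.0957, adjusted p = 5.68e-05) with 5 of 6 libraries above the highest with DMSO, and 0.45 for AU15330 (SE 0.0958, adjusted p = 0.000168) with all 6 above it. The combination was higher than cisplatin by 0.33 (SE 0.0946, adjusted p = 0.00339) and higher than AU15330 by 0.40 (SE 0.0948, adjusted p = 0.00126), while the single drugs did not differ at the threshold (adjusted p = 0.482).

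Casp8 (chr1:58795374-58847503, plus strand), the protease that restrains RIPK1 and RIPK3 and starts apoptosis at death receptors, responded more to AU15330 than to cisplatin. In DMSO-treated cells the lowest, median and highest libraries were at 37.9, 42.8 and 45.9 CPM. They were at 49.5, 52.4 and 57.1 CPM with cisplatin, 63.5, 68.4 and 70.6 CPM with AU15330, and 70.1, 75.8 and 78.9 CPM with the combination. The groups of DMSO, cisplatin and AU15330 did not overlap, and only the libraries of AU15330 and the combination did. The log2 fold change was 0.31 for cisplatin (SE 0.0569, adjusted p = 5.35e-05), 0.68 for AU15330 (SE 0.0570, adjusted p = 5.03e-11) and 0.52 for the combination against cisplatin (SE 0.0565, adjusted p = 8.4e-09). AU15330 was above cisplatin by 0.36 (SE 0.0565, adjusted p = 2.36e-06). The combination was above AU15330 by 0.16 (SE 0.0563, adjusted p = 0.0291), a call that was lost without any 1 of the replicates (adjusted p = 0.0666 to 0.107), with DESeq2's size factors (0.0568) and without the filter on low counts (0.21).

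Casp1 (chr9:5298517-5307265, plus strand) and Casp4 (chr9:5308828-5336783, plus strand), the neighboring genes of the caspases that cleave gasdermin D, differed widely in level. Casp1 had 2, 2, 1, 3, 2 and 0 counts with DMSO, 1, 0, 2, 0, 2 and 0 with AU15330, 12, 5, 8, 8, 5 and 9 with cisplatin, and 2, 7, 1, 5, 4 and 6 with the combination. All cisplatin-treated libraries were above all those with DMSO or AU15330, at counts too low for the filter. The pooled ratio of Casp1 was 4.02 for cisplatin against DMSO (95% exact interval 2.01 to 8.93) and 1.76 for cisplatin against the combination (1.06 to 2.99). Without the filter, Casp1 was higher with cisplatin than with DMSO (log2 fold change 1.92, adjusted p = 0.00562), and its difference between the combination and cisplatin was not called (adjusted p = 0.15).

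Casp4 was at 12.2 CPM in the lowest DMSO-treated library, 15.2 at the median and 21.3 in the highest. It was at 21.1, 24.4 and 30.1 CPM with cisplatin, 21.1, 22.1 and 24.8 CPM with the combination, and 11.2, 13.4 and 14.3 CPM with AU15330. Both groups with cisplatin were thus above AU15330 in every library, and in each of them 5 of 6 libraries were above the highest with DMSO. Cisplatin raised Casp4 by a log2 fold change of 0.68 (SE 0.110, adjusted p = 1.17e-05), and the combination was above AU15330 by 0.81 (SE 0.111, adjusted p = 1.94e-06). Between the combination and cisplatin the log2 fold change was −0.13 (95% interval −0.36 to 0.09, adjusted p = 0.278). With AU15330 alone Casp4 was lower than with DMSO by a log2 fold change of −0.27 (SE 0.112, adjusted p = 0.0358) in overlapping groups, a call lost with scaling to total counts (−0.14, adjusted p = 0.29), in a fit of these groups alone (0.0847) and without any 1 of replicates 2 to 6 (0.0528 to 0.139).

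Gsdmd (chr15:75862327-75867408, plus strand), which encodes the pore-forming protein of pyroptosis, fell wherever AU15330 was present. With DMSO the lowest, median and highest libraries were at 179, 192 and 216 CPM, and with cisplatin at 173, 195 and 206 CPM. With AU15330 they were at 79.6, 90.6 and 101 CPM, and with the combination at 82.4, 97.9 and 109 CPM. Every library with AU15330 was below every library without it. The log2 fold change was −1.12 for AU15330 against DMSO (SE 0.0779, adjusted p = 1.1e-12) and −0.995 for the combination against cisplatin (SE 0.0776, adjusted p = 1.43e-11). Cisplatin gave −0.04 against DMSO (95% interval −0.20 to 0.12, adjusted p = 0.677), and the combination 0.08 against AU15330 (95% interval −0.08 to 0.24, adjusted p = 0.412).

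The remaining comparisons set the groups against each other in other pairs. Of the 5 genes other than Zbp1, the combination raised 4 against DMSO and lowered 1, Gsdmd, beside 36.8% and 36.5% of all tested genes (with total counts the share of higher genes among those called went from 50.1% to 59.7%), with Mlkl at a log2 fold change of 0.85 (SE 0.0958) and Casp8 at 0.83 (SE 0.0570). Against AU15330 it raised 3 (Casp4, Mlkl and Casp8, the last with the limits given above) and lowered none, beside 22.2% and 19.5%. AU15330 compared with cisplatin raised Casp8 and lowered Casp4 and Gsdmd, 1 and 2 genes beside 35.8% and 37.3%. Zbp1 was lower with AU15330 than with cisplatin by a fitted log2 fold change of −6.00 (SE 0.301, adjusted p = 1.22e-15).

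Whether AU15330 acted differently with and without cisplatin was tested by the interaction of both drugs, for which 17.9% of all tested genes were called higher and 15.8% lower, the share of higher genes among those called going from 53.0% to 41.7% with total counts. Of the 5 genes other than Zbp1, none was called. Zbp1 entered the test only through its high cisplatin libraries, so a call was likely in advance and is given as a description. Its term was −6.14 on the log2 scale (SE 0.711, adjusted p = 2.99e-07), resting on 4 pooled counts with DMSO and 24 with AU15330. For Zbp1, AU15330 alone gave a positive and AU15330 on top of cisplatin a negative log2 fold change. The interaction of Casp8 was −0.16 (95% interval −0.32 to 0.01, adjusted p = 0.129) and was called with total counts (−0.23, adjusted p = 0.0278) and with DESeq2 (−0.19, adjusted p = 0.0491). For Ripk1 it was −0.16 (95% interval −0.38 to 0.05), for Mlkl −0.12 (−0.40 to 0.16), for Casp4 0.13 (−0.19 to 0.45) and for Gsdmd 0.13 (−0.10 to 0.35), none of them called (adjusted p = 0.236 to 0.545). The plot of fitted differences sets these values side by side.

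**Figure D2:**
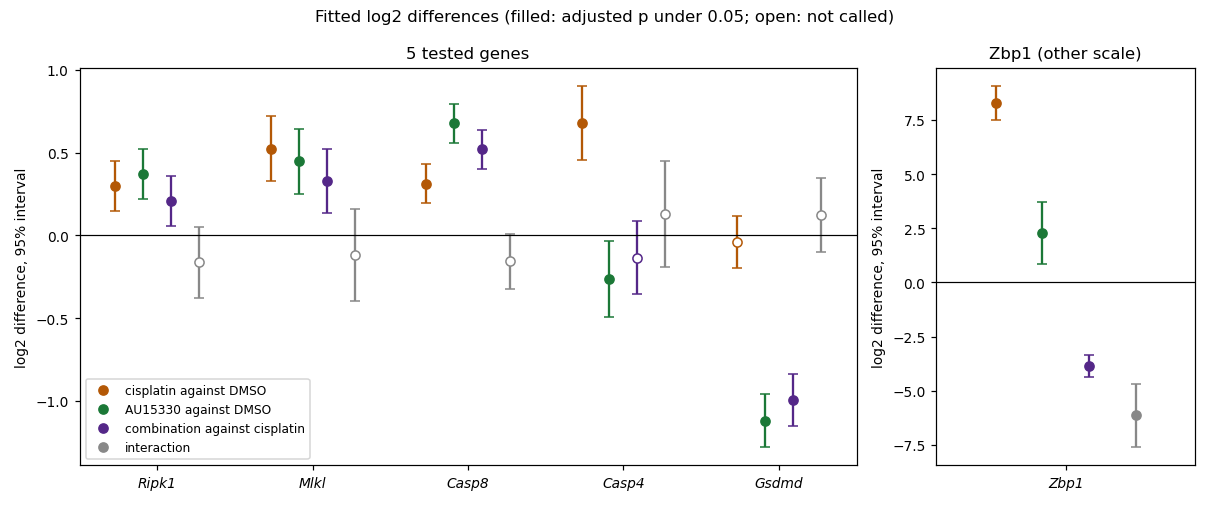
Log2 differences with 95% intervals (vertical axes) of the 6 tested genes in 4 comparisons, with Zbp1 on a wider scale at the right; filled points have an adjusted p under 0.05. Gsdmd lay near −1 wherever AU15330 was added, and Zbp1 was positive for each drug alone and negative for the combination against cisplatin.

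Between genes, levels were compared per kilobase of exon. In DMSO-treated cells Gsdmd was highest at 82.5 ± 6.70 CPM per kb (SD, n = 6), followed by Mlkl at 15.9 ± 3.05, Casp8 at 14.7 ± 1.21, Ripk1 at 9.13 ± 1.17 and Casp4 at 4.16 ± 0.903, and the libraries of Mlkl and Casp8 overlapped. Casp1, Ripk3 and Zbp1 followed at under 0.1 CPM per kb in every DMSO-treated library, with overlapping ranges. With cisplatin Zbp1 reached 3.45 ± 0.778 CPM per kb, below Casp4 at 6.68 ± 0.830 and above Casp1 at 0.226 ± 0.0806 and Ripk3 at 0.195 ± 0.0887. In the same libraries Ripk3 had 4 to 19 counts and Zbp1 173 to 369. With AU15330 Gsdmd was still highest, at 37.9 ± 3.67 CPM per kb, but closer to Casp8 at 23.4 ± 1.05, and with the combination it was at 40.2 ± 4.30 beside Mlkl at 28.6 ± 1.40.

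The genes whose levels ran most like each member over the 24 libraries were found by Pearson correlation of log2 CPM, which here follows mainly the 4 treatments and is given as a description. For Zbp1 they were Apol9a (r = 0.975), Ifit3 (0.973) and Serpinb8 (0.968), and within treatments, as deviations from the group means, r was 0.179, 0.289 and 0.427. Ifit3, an interferon-stimulated gene, ranged from 66.1 to 122 CPM with cisplatin and from 3.50 to 6.32 CPM with the combination. For Mlkl they were Rrm2 (0.947), Depdc1a (0.944) and Asf1b (0.942), with r of 0.761, 0.832 and 0.837 within treatments. Rrm2, a subunit of ribonucleotide reductase, had 22.8 ± 8.22 CPM with DMSO, against 152 ± 15.5 CPM with the combination (SD, n = 6). Ripk1 was most like Fancm (0.955), Nup98 (0.946) and Npat (0.946), Casp4 like Slc25a25 (0.919), Rangap1 (0.915) and Prpf3 (0.914), Casp8 like Rad9a (0.979), Gm15246 (0.975) and Xlr (0.970), and Gsdmd like Epn3 (0.987), Sema6c (0.985) and Fam234a (0.984). Among the members themselves, Mlkl and Casp8 ran together (r = 0.84, and 0.712 within treatments), and Casp8 and Gsdmd ran oppositely (−0.857), which did not hold within treatments (0.403).

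Around the 8 genes, 43 others of the same pathways were followed, of which 31 could be tested. With cisplatin 14 rose and 3 fell, with AU15330 16 rose and 11 fell, and with the combination against cisplatin 11 rose and 10 fell. Over all tested genes the shares, higher and lower, were 26.0% and 25.7%, 36.2% and 37.2%, and 35.4% and 32.7%. The median log2 fold changes of the 31 genes were 0.16, 0.31 and −0.02. These counts and medians include Il18, which passed the filter on low counts only through its cisplatin libraries. Il18 counted as a rise with cisplatin and as a fall in the other comparisons. The genes named in the next paragraphs were picked from the lists after their values were seen, and the plot of the pathway genes shows all 31.

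Of the 3 genes listed around RHIM proteins, Tlr3 and Ticam1 belong to an input and Adar to a restraint. All 3 rose with AU15330, beside 36.2% of all tested genes. With cisplatin Tlr3 and Adar rose and Ticam1 fell, beside 26.0% and 25.7% of all tested genes. Tlr3, the endosomal receptor of double-stranded RNA, went from 5.68 ± 1.47 CPM with DMSO to 22.4 ± 4.30 with cisplatin, 110 ± 4.57 with AU15330 and 95.1 ± 11.5 with the combination (SD, n = 6). The groups with AU15330 and with the combination were its highest. The combination was lower than AU15330 in 6 of 6 same-numbered pairs, a difference that was not called here (−0.21, adjusted p = 0.183) and was called in a fit of these groups alone (adjusted p = 0.0213). Adar, whose RNA-editing protein restrains ZBP1, went from 51.2 ± 4.97 CPM with DMSO to 192 ± 2.73 with AU15330, 175 ± 32.9 with cisplatin and 173 ± 12.3 with the combination (SD, n = 6). Both single drugs raised it, with log2 fold changes of 1.91 and 1.78 (adjusted p = 1.12e-15 and 3.75e-14). Its combination libraries were also below those with AU15330 in 6 of 6 same-numbered pairs, without overlap. This difference was not called here (−0.15, adjusted p = 0.185) and was called in a fit of these groups alone (adjusted p = 0.0127). Ticam1, the RHIM adaptor of TLR3, fell by 0.38 on the log2 scale with cisplatin (adjusted p = 0.000316) and rose by 0.72 with AU15330 (adjusted p = 9.69e-09).

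Of 19 genes of the death receptor complexes, 6 rose and 1 fell with cisplatin, and 10 rose and 6 fell with AU15330, beside 26.0% and 25.7%, and 36.2% and 37.2%, of all tested genes. Among them the rise of Map3k7 with cisplatin (0.17, adjusted p = 0.0257) was lost under 4 alternatives (0.0595 to 0.156), the fall of Tab2 with AU15330 (−0.25, adjusted p = 0.00574) was lost with total counts (0.146), and Fas, called higher with AU15330, would not have been tested on the DMSO and AU15330 libraries alone. Of the adaptors and regulators of caspase-8, Fadd (log2 fold change 0.71, adjusted p = 5.5e-07) and Cflar (0.49, adjusted p = 0.000757) rose with AU15330. Of the genes of the linear ubiquitin complex, Rbck1 (0.85, adjusted p = 5.98e-13) and Rnf31 (0.84, adjusted p = 2.85e-06) rose with AU15330, and Sharpin fell (−0.25, adjusted p = 0.000594), a call lost with total counts (adjusted p = 0.0716). Of other genes that add or remove ubiquitin, the ligase Birc2 (1.05, adjusted p = 2.52e-12) and the deubiquitinase Cyld (0.78, adjusted p = 7.06e-10) rose with AU15330, the CYLD partner Spata2 fell (−1.001, adjusted p = 7.05e-09), and Otulin was at 0.08 (adjusted p = 0.4), a value that was called with total counts (0.21, adjusted p = 0.0428). Traf2, an adaptor of the TNF receptor, and Tnfaip3, an editor of ubiquitin chains, differed in direction between the drugs, rising with cisplatin (0.79 and 0.87) and falling with AU15330 (log2 fold changes −0.61 and −0.91), each at an adjusted p under 0.05. Tnfrsf1a, the TNF receptor, fell with cisplatin (−0.36, adjusted p = 8.49e-06) and with AU15330 (−0.74, adjusted p = 7.79e-12).

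Of 11 inflammasome genes 5 were tested, of which 3 rose and 1 fell with cisplatin, and 3 rose and 2 fell with AU15330, beside 26.0% and 25.7%, and 36.2% and 37.2%, of all tested genes. The fall of Nlrp3 (adjusted p = 0.0307) was lost under 6 alternatives (adjusted p = 0.062 to 0.227), and its counts in these groups alone would not have passed the filter. Naip2 and Naip5 are among them, related genes whose shared reads, if any, the counting could have split. Pycard, the adaptor that links sensors to caspase-1, had 0 counts in 23 of 24 libraries and 1 in the other. Aim2, the sensor of cytosolic DNA, was at 1.90 ± 0.817 CPM with DMSO, 4.68 ± 0.852 with cisplatin, 0.858 ± 0.221 with AU15330 and 1.18 ± 0.380 with the combination (SD, n = 6). It rose with cisplatin (log2 fold change 1.30, adjusted p = 5.99e-05) and was lower with the combination than with cisplatin (−1.99, adjusted p = 9.48e-08).

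Of 10 other genes of caspases, gasdermins, membrane rupture and substrates 4 were tested, among them Il18, which passed the filter only through its cisplatin libraries. Of the other 3, 2 rose with cisplatin and 2 fell with AU15330, beside 26.0% and 37.2% of all tested genes. The rise of Gsdme, the gene of gasdermin E (log2 fold change 0.61, adjusted p = 0.0468), was lost without the filter on low counts (0.0693) and without replicate 1, 3, 4, 5 or 6 (0.0626 to 0.133), and the fall of Casp12 (−0.27, adjusted p = 0.0424) with total counts (0.291), in a fit of these groups alone (0.0569) and without any 1 of replicates 2 to 6 (0.0551 to 0.111). Il18, the precursor of a cytokine that caspase-1 matures, had 0 to 11 counts with DMSO, 65 to 148 with cisplatin, 0 to 3 with AU15330 and 1 to 6 with the combination. Its pooled ratio was 15.8 for cisplatin against DMSO (95% exact interval 11.3 to 22.7) and 31.1 for cisplatin against the combination (20 to 51.3). Ninj1, which ruptures the membrane after gasdermin pores form, fell with AU15330 (−0.38, adjusted p = 4.02e-05).

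**Figure D3:**
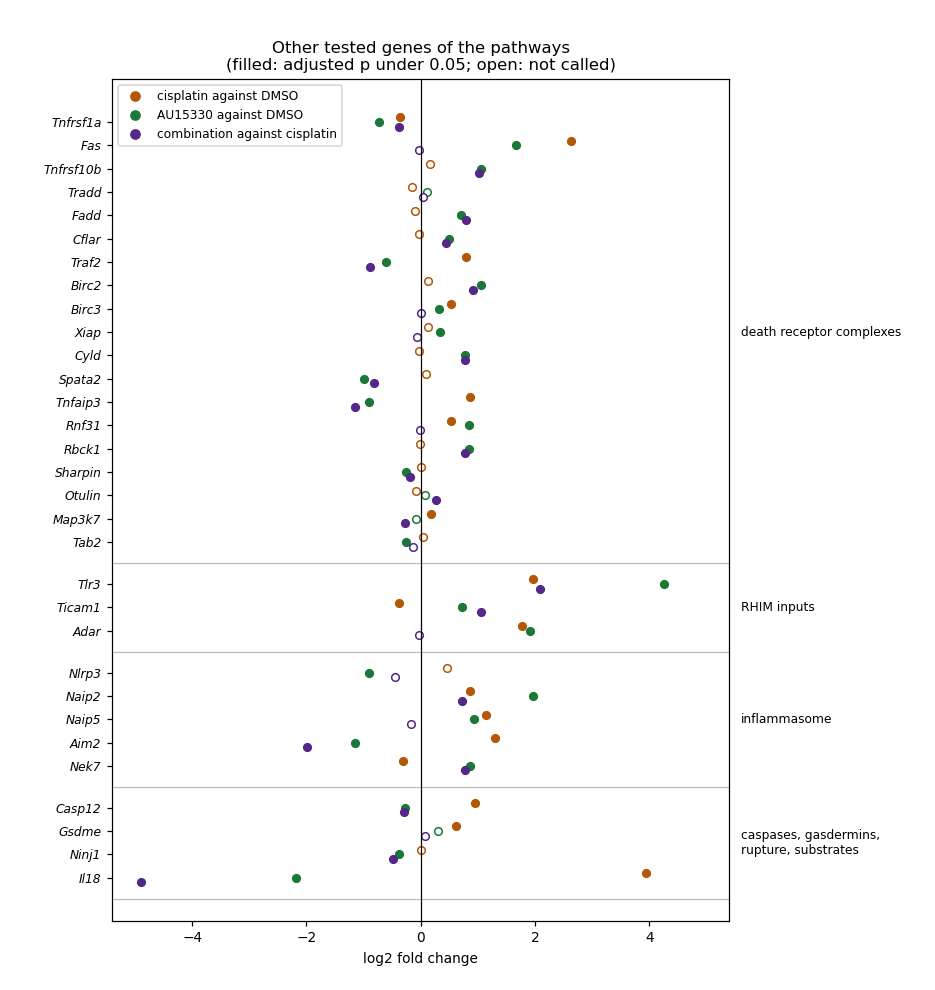
Log2 fold changes (horizontal axis) of the 31 tested pathway genes (rows, grouped by list) for cisplatin against DMSO, AU15330 against DMSO and the combination against cisplatin; filled points have an adjusted p under 0.05. Il18 and Aim2 were higher with cisplatin and lower with the combination than with cisplatin, and Tlr3 had its largest log2 fold change with AU15330 against DMSO.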

How the data were processed

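Polyadenylated RNA of 24 libraries was sequenced by the authors as strand-specific single-end reads. The submitters' notes name STAR 2.7.1a, mm10 and DESeq2 1.36.0. The deposited values are raw read counts per gene symbol, and the counting tool, use of strand and annotation are not given in the sources used here. The 48 lane columns (0 unused) were summed to 24 libraries, as lanes differed little (the chi-square divided by its degrees of freedom was 1.35 to 1.46 for lanes and had a median of 25.0 for replicates). Genes were tested in R 4.3.3 with edgeR 4.0.16 (TMM, filterByExpr, quasi-likelihood F test, a single fit of all libraries, 20 residual degrees of freedom), and log CPM used a prior count of 2. Ratios of pooled counts carry exact binomial intervals for counting error only. Alternatives were DESeq2 1.42.0, its size factors, total counts, no low-count filter, a replicate block, a fit of the groups compared, and leaving out each replicate. The code was tested on simulated data. Every member was named, and each of the 6 tested also with its 3 most correlated tested genes. Members and lists were chosen with earlier results of these data known. GENCODE vM21 gave positions and exon lengths on GRCm38. A few genes of the lists are not reported here, and protein sequences were not used here.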

Additional observations from a re-analysis of the deposited data

Results flagged for a closer look

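The effect of AU15330 differed with and without cisplatin, by the interaction term at an adjusted p under 0.05 (edgeR's quasi-likelihood test), for Zbp1 among the 8 genes, at −6.14 on the log2 scale. Of the 31 tested pathway genes it also differed for 10: Tlr3 (−2.18), Adar (−1.93), Naip2 (−1.25), Naip5 (−1.09), Rnf31 (−0.85), Birc3 (−0.31), Ticam1 (0.34), Tnfrsf1a (0.36), Fas (−1.70) and Il18 (−2.71). Of these 10, 2 were higher and 8 lower, beside 17.9% and 15.8% of all tested genes. Naip2 and Naip5 are related genes, and how any reads shared by both were counted is not stated, so their values are uncertain to that extent. The values of Zbp1, Fas and Il18 rest on groups with few or no counts. Zbp1 and Il18 passed the filter on low counts only through their cisplatin libraries, so their calls are a description. The calls of Ticam1, Fas, Il18 and Birc3 were each lost when at least 1 replicate number was left out. Other genes were called under an alternative only: Xiap with the replicate block (adjusted p = 0.0355), DESeq2 (0.0319), both other scalings (0.0404 and 0.029) and without replicate 2 or 6 (0.0187 and 0.0486), Map3k7 with DESeq2 (0.0221) and both other scalings (0.0394 and 0.0242), Aim2 with the replicate block (0.044) and without replicate 1 (0.0476), and Traf2 with the replicate block (0.0264).

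Single libraries stood apart from the other 5 of their group in 10 of the 156 sets of 6 levels searched, where 7.8 are given by chance at 1 in 20, and in no set of the 8 genes. Of the 10, 8 were in replicate 1 (in 7 genes), and replicate 1 also had the highest correlation of deviations between AU15330 and the combination (0.483) and between cisplatin and the combination (0.463). The gap to the nearest library, as a share of the range, was 0.668 for Tlr3 and 0.702 for Adar, both lowest in replicate 1 of the combination (72.7 and 149 CPM), and 0.711 for Fadd, highest in that same library (32.2 CPM). It was 0.728 for Nek7 (297 CPM) and 0.777 for Ninj1 (55.2 CPM), both highest in replicate 1 of AU15330, and 0.708 for Nek7, highest in replicate 3 of cisplatin (145 CPM). It was 0.719 for Xiap, lowest in replicate 1 of the combination (79.9 CPM). For Tnfrsf10b it was 0.777 with DMSO and 0.673 with AU15330, both lowest in replicate 1 (3.71 and 11.1 CPM), and 0.636 with cisplatin, highest in replicate 5 (9.39 CPM).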

How the results depend on the processing

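Under the alternatives run, no called result reversed its direction. Of 498 checks of single log2 fold changes of the 6 tested genes, 480 kept their side of the threshold (2 values that were not called changed sign), 16 were no longer called and 2 were newly called. Of the checks of the 31 pathway genes, 97 were no longer called and 45 were newly called. The count of genes called in the interaction, Zbp1 included, went from 1 to 2 with total counts and to 2 with DESeq2, by the addition of Casp8. Without 1 replicate number at a time, the genes called, Zbp1 included, ranged from 5 to 5 for cisplatin against DMSO, 5 to 6 for AU15330 against DMSO, 4 to 5 for the combination against cisplatin, 3 to 3 for the combination against AU15330, 6 to 6 for the combination against DMSO, 4 to 4 for AU15330 against cisplatin and 1 to 1 for the interaction. Over all tested genes the counts ranged from 5820 to 6821, 8971 to 9680, 8199 to 8944, 4498 to 5615, 8941 to 9630, 8944 to 9661 and 3261 to 4625 in the same order.

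With the replicate block, 5 of the genes, Zbp1 included, were called for cisplatin against DMSO and 1, Zbp1, for the interaction, as without it. Over all tested genes it called 7354 in place of 6689 and 5303 in place of 4361. It changed no call of the 6 genes. Of the pathway genes, and apart from the interaction, it added Fas (adjusted p = 0.0331), Rnf31 (0.00424), Tradd (0.0272) and Xiap (0.0414) for the combination against AU15330 and ended the call of Tnfaip3 for the combination against DMSO (0.0532). Same-numbered libraries were alike in part: of 36 pairs, 23 had deviations from the group means that correlated above 0.1 (range −0.133 to 0.483). In 17 of the 36 the own number was the best match. For replicate 1 the correlation was 0.217 to 0.483 over all pairs of groups, while other numbers were less regular. This is a hint of pairing from the data and not from the design. Between AU15330 and the combination all 6 pairs were above 0.1 (0.101 to 0.483). In that comparison Ripk1 and Gsdmd were higher with the combination in 6 of 6 same-numbered pairs, and with the replicate block their adjusted p was 0.0981 and 0.358. Scaling to total counts shifted the median log2 fold change of all genes to 0.13 for AU15330 against DMSO, 0.10 for the combination against cisplatin and 0.14 for the combination against DMSO. It was 0.07 for cisplatin against DMSO and −0.06 for the interaction. For the combination against AU15330 and AU15330 against cisplatin it was 0.02 and 0.04. At the depth of these libraries, Ripk3, Casp1 and, without cisplatin, Zbp1 lie at or near the floor of 3 counts. The causes of the calls that were lost or gained were not tested.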
